A study of Mus musculus with 2 samples.

Results

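Maternally expressed imprinted genes were followed in mouse embryonic stem (ES) cells after knockdown of the histone H2A variant H2A.B. The set held 10 genes from several chromosomes: Ube3a, Blcap, Gnas, Grb10, Igf2r, Ano1, Trappc9, Copg2, H13 and Gatm. Members were all probe sets whose platform annotation gave exactly 1 of these symbols. The rule found 20 probe sets for 8 of the 10 genes, out of 28898 probe sets that named 1 gene. Igf2r and Gatm were named alone by 0 probe sets, so neither was measured on its own. None of the 20 probe sets fell among the values left out as unusable.

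One array held RNA from ES cells carrying a retrovirus with a control RNA sequence (control KD), and one held RNA from ES cells with a short-hairpin RNA against H2A.B (H2A.B KD, numbered 1 in its title). Hairpin sequences were cloned into the pMSCV-neo vector behind a U6 promoter, and the cells had been under G418 selection for 2 to 4 weeks. Both cultures grew feeder-free on gelatin with 15% serum and 1000 units/ml of ESGRO. From each, 2 µg of total RNA was primed with oligo(dT) and hybridised to an Affymetrix array. With 1 array in each group, the differences carry no replicate error and could not be tested. Values are log2 intensities, differences are knockdown minus control on the log2 scale, and a difference of at least 1, which is 2-fold, is the size counted throughout.

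An imprinted gene is expressed mainly or only from the copy inherited from one parent, because a control region carries DNA methylation on one parental copy. Maternal expression of several of these genes is restricted to certain tissues. Ube3a is imprinted in neurons, Blcap and Trappc9 in brain, and Ano1 and Gatm in the placenta, while both copies are used in many other tissues. Grb10 uses a second promoter in neurons, which is active on the paternal copy. These arrays do not tell the parental copies apart, so the values are the sum of both. In bulk RNA, fewer cells expressing a gene and less RNA per cell cannot be told apart.

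Promoter sequence was available for 9 of the 10 genes, in 13 windows of the 250 bases before an annotated start (RefSeq, GRCm38.p6). CpG dinucleotides, the sites of methylation in mammals, numbered from 8 to 40 per window, and all 13 windows were above the median of 6 over 32851 windows. Gnas gave 4 of the 13, and those from positions 174327499 and 174327518 share most of their bases. The windows of Ano1 and Ube3a are shown because these genes had the largest difference and the closest repeat measurements. The Ano1 window lies within the annotated gene (chr7:144588549-144752026), before an internal start and not the outermost one. Capitals mark each CpG, and both sequences run 5′ to 3′ on the gene's strand.
Ano1, chr7:144738574-144738823, minus strand: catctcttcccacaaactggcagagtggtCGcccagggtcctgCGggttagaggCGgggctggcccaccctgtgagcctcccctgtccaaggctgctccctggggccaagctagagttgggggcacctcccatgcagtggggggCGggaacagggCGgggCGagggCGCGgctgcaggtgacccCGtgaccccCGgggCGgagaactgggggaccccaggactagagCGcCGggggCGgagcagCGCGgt
Ube3a, chr7:59228500-59228749, plus strand: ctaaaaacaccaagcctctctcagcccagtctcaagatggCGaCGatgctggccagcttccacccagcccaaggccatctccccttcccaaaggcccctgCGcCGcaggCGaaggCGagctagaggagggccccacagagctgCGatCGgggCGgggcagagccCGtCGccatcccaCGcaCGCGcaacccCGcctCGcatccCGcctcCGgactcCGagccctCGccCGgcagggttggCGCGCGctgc

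The Ano1 window held 16 CpGs, as many as or more than 76.5% of all windows. The Ube3a window held 24 CpGs, as many as or more than 89.3%. The 2 Grb10 windows differed most among members, with 40 CpGs at the upstream start and 8 at the other. The motif TGCCGC, searched on both strands as the letters that the imprint-protecting zinc finger protein ZFP57 binds when methylated, occurred in 1 of the 13 windows, that of Copg2, and in 8.68% of all windows. These matches describe letters, and the arrays measured neither methylation nor binding.

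Ano1 was the member that differed by 2-fold. Of the 20 member probe sets, 1 was lower by 2-fold or more and 0 were 2-fold higher, where 3.07% of all 27614 usable single-gene probe sets were lower and 1.12% were higher by that much. The median difference over the 20 probe sets was -0.07, beside -0.01 over all, and 13 of the 20 lay below 0, where 53.5% of all did. Within 0.5 of 0 lay 17 of the 20, against 89.0% of all. Counted as genes on their brightest probe set, 1 of 8 was 2-fold lower and 0 higher, against 2.91% and 1.13% of 16563 genes. Of the 8, 4 lay below 0, where 52.4% of all genes did, and their median was -0.0024. With a limit of 1.5-fold, 3 of the 20 probe sets were lower, both of Ano1 and 1 of Trappc9, against 6.23% of all. At the 2-fold size a count of 1 in 20 is near the background, so it is no result about the members as a group.

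**Figure D1:**
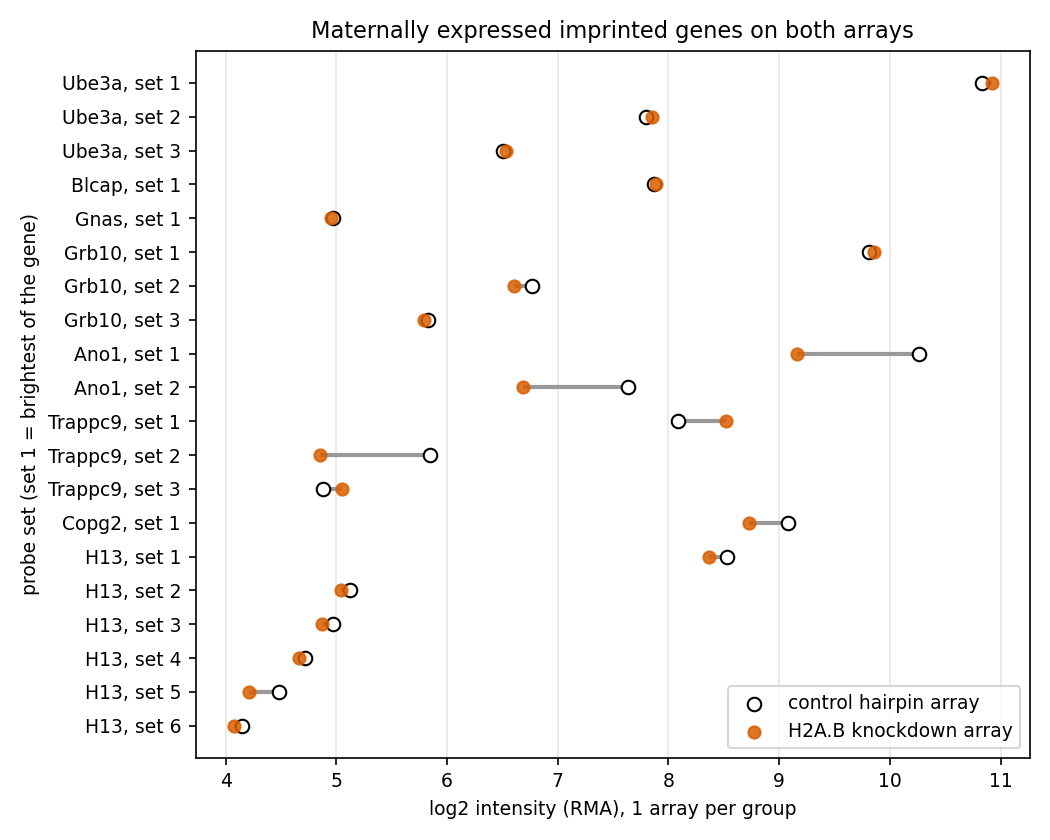
Log2 intensity of each of the 20 member probe sets on the control array (open circles) and the knockdown array (filled circles), grouped by gene and ordered by brightness within a gene. Both Ano1 probe sets and 1 of the 3 Trappc9 probe sets stand out by a drop of about 1, and most other pairs of circles touch.

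The chloride channel gene Ano1 encodes a calcium-activated channel, also called Tmem16a. Its brighter probe set had 10.27 in control cells and 9.16 in knockdown cells, which is 2.15-fold lower (-1.10). Its other probe set had 7.63 and 6.68, a difference of -0.95, just short of 2-fold. The knockdown value was thus lower on both, and the differences lay 0.15 apart. The deposited table has a middle section, rows 18185 to 33642, in which control values repeat nearby values, and the rows before and after are called the first and last section. In the first section, which holds the brighter probe set, 5 of 1169 probe sets within 0.5 of its mean level were at or below its difference, itself included. For the dimmer one, in the last section, the count was 29 of 832.

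Of 4128 genes with exactly 2 usable probe sets, 105 (2.54%) had both at or below the -0.95 of the dimmer Ano1 probe set, and 186 had at least 1 that was 2-fold lower. In 104 of those 186 genes (55.9%) both differences were that low, as for Ano1, and in 59 the higher of the pair was within 0.5 of 0. Probe sets of one gene read the same RNA on the same arrays, so their agreement is no replicate of the culture.

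Differences near -1, where both Ano1 probe sets and 1 of Trappc9 fell, were more frequent than neighbouring sizes in part of the table. In the first section, 116 probe sets lay from -1.1 to -0.9, against 35 from -0.9 to -0.7 and 30 from -1.3 to -1.1. The bin near -1 therefore held more probe sets than either neighbour. In the last section the counts were 135, 167 and 84 in the same order, with no such peak. Near -2 the first section also held more probe sets than beside it, with 21 from -2.1 to -1.9, against 13 from -1.9 to -1.7 and 5 from -2.3 to -2.1. The brighter Ano1 probe set, at -1.10, lay at the edge of the peak in the first section. The part of this peak in the Ano1 value was not tested.

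**Figure D2:**
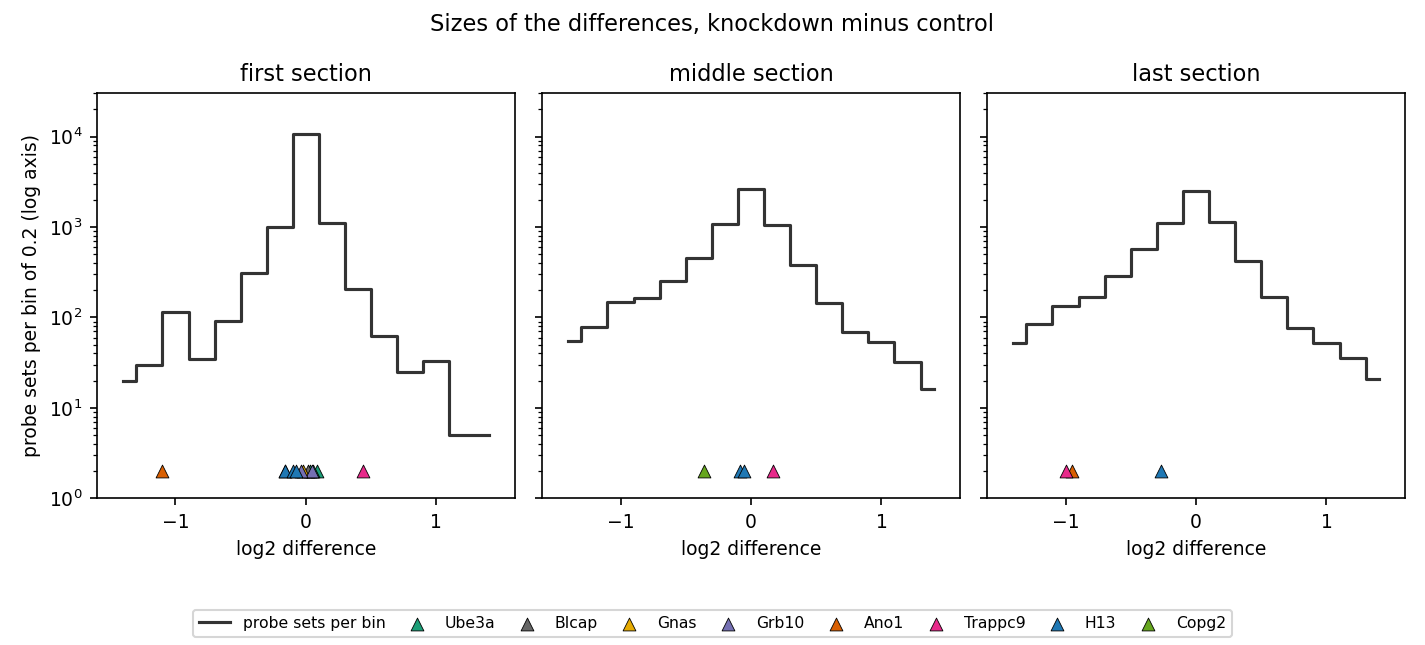
Number of single-gene probe sets by log2 difference, in bins of 0.2 on a log axis, for the 3 sections of the deposited table, with differences beyond the drawn range left out and triangles at the members' own differences (their height has no meaning). The first section has a separate peak of 116 probe sets near -1, and the Ano1 triangle lies at its edge.

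Trappc9 encodes a subunit of TRAPP, a complex that tethers vesicles in transport through the Golgi. Its 3 probe sets went different ways. The brightest had 8.09 in control cells and 8.52 in knockdown cells (0.44). The next had 5.85 and 4.85 (-0.995, or 1.99-fold lower), and the dimmest 4.88 and 5.05 (0.17). The span of 1.43 between them was as wide as or wider than in 96.8% of the 1711 genes with 3 usable probe sets, whose median span was 0.15. The 3 probe sets came from the first, last and middle section in that order. The control value of the dimmest occurs again, to the last digit, in a probe set 2 rows further down, so it may not be its own. No single direction can be given for Trappc9 from these arrays.

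Copg2 encodes the gamma-2 subunit of COPI, the coat of vesicles that move from Golgi to endoplasmic reticulum. Its single probe set had 9.08 in control cells and 8.72 in knockdown cells (-0.36, or 1.28-fold lower). It was read from the middle section of the table, where the median absolute difference was 0.15, against 0.04 in the first. A brighter probe set that the annotation gives to both Copg2 and the overlapping paternally expressed Mest had 10.27 on each array and a difference of -0.0018. The signals of the 2 genes cannot be separated there.

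H13 encodes signal peptide peptidase, an intramembrane protease of the endoplasmic reticulum. All 6 of its probe sets were lower on the knockdown array, by small amounts. The brightest had 8.52 and 8.37 (-0.16). The other 5 had control values from 4.14 to 5.13 and differences from -0.27 to -0.06, with a median over all 6 of -0.09. Of the 6, 3 came from the first section, 2 from the middle and 1, with the largest difference, from the last. Their SD was 0.079, beside a median within-gene SD of 0.065 over 6826 genes with at least 2 usable probe sets. Against the 77 genes with as many usable probe sets as H13, their span of 0.21 was the median.

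Ube3a encodes the E6AP ubiquitin ligase, the gene lost or silent in Angelman syndrome. Its 3 probe sets read 10.83, 7.80 and 6.51 in control cells and 10.92, 7.85 and 6.53 in knockdown cells. All were slightly higher, by 0.09, 0.05 and 0.03. The span of 0.06 was narrower than in most genes with 3 probe sets, since 17.1% of the 1711 had a span as small or smaller. Another probe set, dim and shared by the annotation with 3 other genes, differed by 0.01.

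Grb10 encodes an adaptor that binds the insulin and IGF1 receptors and restrains growth. Its brightest probe set had 9.82 in control cells and 9.86 in knockdown cells (0.05). The others had 6.77 and 6.61 (-0.16) and 5.83 and 5.79 (-0.04). Signs were mixed, and the gene's sign turned when the median over probe sets was used. All 3 were read from the first section.

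Gnas encodes the stimulatory G protein alpha subunit, with several alternative promoters of different parental expression. Its single probe set had 4.97 in control cells and 4.95 in knockdown cells (-0.02), below the median mean level of 6.17. A second dim probe set, shared with the antisense transcript Gnasas1, had 4.24 and 4.47 (0.23). Blcap, a small membrane protein gene that hosts the paternally expressed Nnat in an intron, had 7.87 and 7.89 on its single probe set (0.02). Neither gene on its own probe set differed by more than 0.05.

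Igf2r encodes the receptor that clears IGF2 and carries mannose 6-phosphate proteins to lysosomes. The only probe set that named it also named Airn, the paternally expressed RNA that overlaps it. That probe set had 5.25 in control cells and 5.26 in knockdown cells, a difference of 0.0079. Signals of the receptor gene and of Airn cannot be told apart on it. The 3 probe sets of Airn alone were dim, with control values from 3.24 to 4.52 and differences of -0.02, 0.04 and -0.0036.

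**Figure D3:**
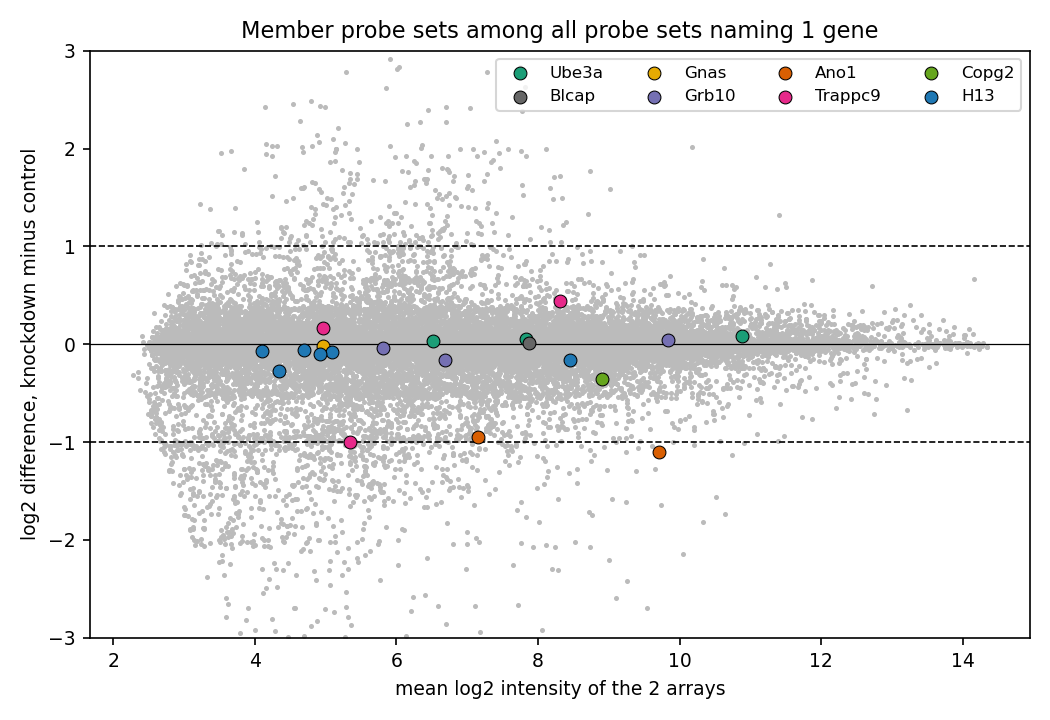
Log2 difference, knockdown minus control, against the mean log2 intensity of the 2 arrays, for usable single-gene probe sets (grey, differences beyond 3 not drawn) and member probe sets (coloured by gene), with dashed lines at 2-fold. The brighter Ano1 probe set lies below the lower line at a mean near 9.72, where few grey points do.

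The position of a probe set in the deposited table went with the size of its difference. Of the member probe sets, the first section held 13, the middle section 4 and the last section 3. Their median absolute difference was 0.07, 0.13 and 0.95 in that order, beside 0.04, 0.15 and 0.17 for all single-gene probe sets of each section. The share of all probe sets that were 2-fold lower was 1.47%, 4.83% and 4.53%, again in table order. The 3 members of the last section were 1 probe set each of Ano1, Trappc9 and H13, the lowest of its gene except for Ano1. The part of the section in these differences was not tested.

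Genes around the members in the same imprinted domains were described from lists chosen with earlier results of these data known. Of the 12 paternally expressed partners, 8 were measured on a probe set of their own. Among them 1 was 2-fold lower and 0 higher, with a median of -0.05. The lower one was Ndn, a MAGE-family gene of the Ube3a domain, with 6.77 in control cells and 4.75 in knockdown cells (4.04-fold). That difference, -2.01 in the first section, lies in the excess near -2 described above, whose part in it was not tested. Its neighbours Snrpn (-0.06), Snurf (-0.03), Mkrn3 (-0.07) and Magel2 (-0.02) differed little, while the dim Peg12 was at 0.57. Mcts2, which lies within H13, was at -0.11. Of 31 measured neighbours without that label, 0 reached 2-fold in either direction. Atp10a, Cobl and Slc22a2 among them are also counted with the maternally expressed imprinted genes outside the set. On the brightest probe set, the largest differences among the 31 were those of Cttn near Ano1 (0.33), the dim Slc28a2 (-0.21) and Cobl beside Grb10 (-0.21). Cttn had -0.16, -0.18 and -0.12 on its other probe sets. Some dimmer probe sets differed more. Fgf3 near Ano1 had 4.38 in control cells and 3.43 in knockdown cells (-0.95) on its dimmer probe set, against -0.03 on its brighter one. That -0.95 lay in the first section, inside its peak near -1, whose part in it was not tested. A dimmer Atp10a probe set was at -0.38.

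Maternally expressed imprinted genes outside the set gave 25 measured genes, 2 of them 2-fold lower and 0 higher, with a median of -0.01. Kcnq1, a potassium channel gene, had 5.76 in control cells and 2.64 in knockdown cells (-3.12). That was its single probe set, in the last section and below the median mean level of 6.17. Ppp1r9a, the neurabin gene, had 7.93 and 4.92 (-3.02) on its brightest probe set, in the middle section. By brightest probe set, Cd81 followed at -0.77. Dimmer probe sets of Ascl2 went both ways, at -0.95 and 0.99, against -0.38 on its brightest. Of 17 listed genes that maintain imprints or their methylation, 16 were measured. Among these 16, 0 reached 2-fold and all lay within 0.5. The gene without a usable probe set of its own was Zfp57, so nothing can be said of it. The largest differences were those of Dnmt3b (-0.42) and Eed (-0.33), both in the middle section, and Trim28 (0.30) in the last.

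Partners of the members' proteins mostly lay near 0. Of 15 genes of IGF and insulin signalling, 2 were 2-fold lower on their brightest probe set. These were Igf2, the ligand that IGF2R clears, at -1.46 in the middle section, and Igf1r, the receptor that Grb10 binds, at -1.11. Pik3ca, named after its values were seen, had 8.13 in control cells and 5.27 in knockdown cells (-2.86) on a dimmer probe set. Its brightest probe set was at -0.02, and its others lay from -0.33 to 0.31. Of 15 G protein and cAMP genes, 9 TRAPP subunit genes and 8 COPI genes, 0 reached 2-fold on the brightest probe set. The same held for 7 relatives or partners of Ube3a, 5 creatine genes and 4 peptidase relatives of H13. The Ano1 relatives measured were 3, of which Ano9 was at -0.92, Ano6 at -0.08 and Ano10 at 0.02.

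**Figure D4:**
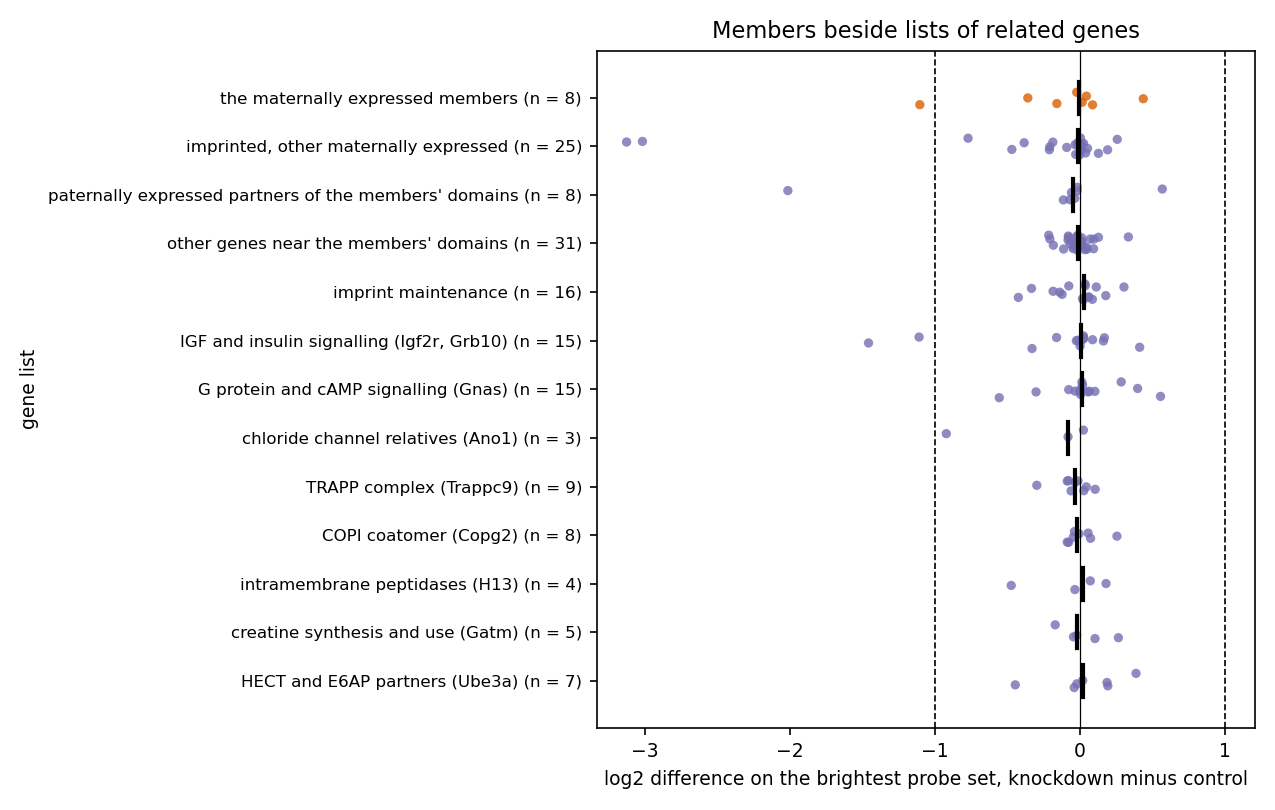
Log2 difference of each gene on its brightest probe set for the 8 measured members (top row) and 12 lists of related genes, with a bar at each median and dashed lines at 2-fold. All medians lie close to 0, and the genes beyond the lower line are Ano1, Kcnq1, Ppp1r9a, Ndn, Igf2 and Igf1r.

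Across usable probe sets, which are no replicates, Pearson's r between the arrays was 0.984. The H2A.B genes were searched under the symbols H2ab1, H2ab2 and H2ab3, which were named by 0 probe sets. Other names were not searched, and depletion was not checked here. Of 9 measured ES cell markers, all had a mean level above the median of 6.17 and 0 differed by 2-fold, with a median of 0.03. Of 8 trophectoderm and placenta markers, where Ano1 is imprinted, 0 differed by 2-fold (median -0.05). The 8 fibroblast, 7 primitive endoderm and 6 neural markers also gave 0, with medians of 0.04, -0.01 and -0.07. At or above the level of 6.17 were 4 of the fibroblast, 3 of the trophectoderm and placenta, 2 of the neural and 0 of the primitive endoderm markers. The largest difference of a marker was that of the neural Pax6, with 9.66 and 8.88 (-0.78) on its brightest probe set. Its dimmer probe sets lay from -0.03 to 0.03.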

How the data were processed

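Per the submitters' processing notes the deposited values were made with RMA (version not given in the sources used here), which corrects background, normalises quantiles and summarises probes. No scale is given with the table. Control values span 0.801 to 14.5, so the deposited values were read as log2 intensities from RMA, as the authors' processing notes name it. The knockdown column as deposited, taken as a score because it is mixed, holds 616 values rising in steps of 1 and 2 more above 20; these 618 were left out and the rest read as log2. Control values that repeat a value up to 20 rows above (1455, between rows 18185 and 33642) were also left out. The rows before, between and after those limits are the first, middle and last section.

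Gene names came from the platform's annotation; for genes outside the set, symbols were updated by gene ID (28689 of 28898 matched, GRCm38.p6). A gene took its brightest usable probe set. Named genes were all members and up to 3 genes with the largest difference per list, plus opposite-expressed neighbours. Members and lists were chosen with earlier results of these data known. Python 3.11.15 with pandas 2.3.3 and statsmodels 0.14.6 was used, and the counting steps were tested on simulated data. Alternatives were centring, the handling of repeats, probe set choice, a filter on dim values and a 1.5-fold rule, and, chosen after seeing the data, leaving out sections. The number of arrays limits the precision.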

Additional observations from a re-analysis of the deposited data

How the results depend on the processing

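The count of 1 member probe set, and of 1 member gene, past 2-fold was the same with repeated control values kept, with both members of each repeated pair left out, with median or lowess centring, without suffixed probe sets, with dim values filtered, without the middle section and in the first section alone. With the 1.5-fold rule the probe set count was 3, all lower. With dim values filtered the median over member probe sets was 0.0165 rather than -0.07, over 11 probe sets. The Ano1 difference ranged from -1.11 to -1.03 and that of Trappc9 from 0.17 to 0.45, each over 8 alternatives. For Trappc9 each alternative took the brightest probe set or the median of 3. The range therefore cannot show its probe set at -0.995, and it gives no direction for the gene. Median centring moved all values by under 0.01. Leaving out a replicate was not possible with 1 array per group. No paired analysis was possible, since 1 array per group gives a single difference for each probe set. Signal over background was not given, so small differences of dim probe sets are uncertain.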

Other observations

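Igf1r, the receptor through which IGF2 acts when it is not cleared by IGF2R, was lower on all 4 of its probe sets, by -1.11, -0.94, -0.97 and -1.13, at control levels of 7.502, 6.809, 6.116 and 5.199. The differences of -0.94 and -0.97 were read from the first section, inside its peak from -1.1 to -0.9, and the part of that peak in them was not tested. Igf2 was lower on both of its probe sets, by -1.46 and -1.06. The -1.46 belonged to the middle section. The -1.06, from a dim control level of 3.67, belonged to the first section and also lay inside its peak from -1.1 to -0.9. The part of the section or of the peak in the 2 Igf2 differences was not tested. Igfbp2, a binding protein for the same ligands, was at 0.41 on its single probe set.

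Ppp1r9a, which encodes a neuronal scaffold of protein phosphatase 1, was lower on all 4 probe sets. Its differences were -3.015, -3.001, -2.991 and -1.011, at control levels of 7.93, 7.91, 5.97 and 3.40. What makes differences so close to whole numbers at unlike brightness was not tested. The COPI gene Arcn1, named after its values were seen, had 6.33 in control cells and 9.16 in knockdown cells on its dimmer probe set (2.83), and 11.82 and 11.78 on its brighter one (-0.04).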
